A study of Mus musculus with 8 samples.

Results

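Collagen genes were the 44 rows of the deposited count table whose symbol is Col followed by a type number, the letter a and a chain number, out of 55291 rows in all. They comprised 11 fibrillar collagens, 8 basement membrane collagens and 25 other collagens, a grouping made from general knowledge of collagen structure. Of the 44, 43 had enough reads to be tested between genotypes. The remaining gene, *Col10a1*, a collagen of growth plate cartilage, had between 0 and 7 reads in each mouse.

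Collagens are secreted or membrane-bound proteins whose chains wind around each other into a helical rod. Fibrillar collagens are cut at both ends outside the cell and pack into the cross-linked fibrils of connective tissue, whereas type IV collagen forms the sheet-like network of basement membranes. In the healthy cord, fibrils are sparse in the parenchyma and abundant in the meninges and nerve roots, and type IV collagen surrounds the blood vessels and the pial surface. Fibroblasts, vascular cells and Schwann cells are well-known sources, and several collagens with short or interrupted helices are also expressed by neurons and glia.

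RNA was sequenced from the lumbar spinal cord of 8 male C57BL/6J mice that carried the *SOD1G93A* transgene, a mutant human superoxide dismutase that causes motor neuron disease in mice. In 4 mice (E1776, E5231, E5248, E5568), called *Ager*-deleted, genotype *SOD1G93A* *Ager* fl/fl *Cx3cr1* Cre/+, the gene encoding RAGE, the receptor for advanced glycation end products, could be deleted in cells expressing *Cx3cr1*, in the cord mainly microglia. The 4 controls (E5386, E5642, E6578, E6732), genotype *SOD1G93A* *Ager* +/+ *Cx3cr1* Cre/+, had no floxed allele. All 8 mice received tamoxifen in 5 injections at 12 weeks of age, and all carried the inducible Cre inserted in an allele of *Cx3cr1*. The labels give an age of 120 days, whereas the study places this sequencing at the humane endpoint. The RNA came from whole tissue, so fewer cells of a type and less RNA per cell cannot be told apart. Values of mice are given below in the order of the names above.

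Between 31148047 and 40324897 reads were assigned to genes in each mouse, so that 3 reads corresponded to 0.0729 to 0.0975 CPM (counts scaled to a library of 1000000 reads). The level of *Ager* itself averaged 1.19 CPM after deletion (SD 0.287, n = 4) and 2.08 CPM in controls (SD 0.382, n = 4), with a log2 fold change of -0.81 (edgeR exact test, adjusted p = 0.252). The highest *Ager*-deleted mouse was at 1.51 CPM and the lowest control, E5386, at 1.53 CPM, so the groups did not overlap but nearly met (two-sided exact permutation p = 0.0286, which is the lowest value possible for 4 against 4). Summed CPM of 16 spinal cord markers was 28707 to 34119 in *Ager*-deleted mice and 30472 to 32999 in controls, and every marker was detected. Several libraries stood apart in genes of other tissues. Summed CPM of 20 skeletal muscle markers was 1319 in control E5386 and 1947 in control E5642, against 74.8 to 106 in the other 6 mice. Liver markers summed to 737 CPM in control E6732, against 4.01 to 14.5 elsewhere. *Ucp1*, the uncoupling protein of brown fat, was at 42.2 CPM in control E5386 and at 0.0508 to 0.216 CPM in the other mice. *Prx*, periaxin of Schwann cells, was at 1.29 CPM in control E5386 and at 38.8 to 143 CPM in the other mice. The plot of fold changes gives every tested collagen with and without E5386, and the text gives both values for those that moved most.

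Per kilobase of merged exon, the chains of type I and type III collagen did not have the highest levels in this tissue. *Col16a1*, which encodes a collagen that associates with fibrils and belongs to the FACIT group, had the highest mean over the 8 mice, at 17.6 CPM per kilobase. It was followed by *Col5a3*, a chain of type V fibrillar collagen, at 13.1 CPM per kilobase, *Col9a3*, a FACIT chain best known from cartilage, at 9.83 CPM per kilobase, and *Col23a1*, a transmembrane collagen, at 9.71 CPM per kilobase. The fibrillar gene *Col11a2* was at 9.14 CPM per kilobase. The basement membrane chains *Col4a2* and *Col4a1* were at 9.11 and 7.87 CPM per kilobase, and *Col6a1* of microfibrils at 7.36 CPM per kilobase. The type I collagen chains *Col1a2* and *Col1a1* were at 7.36 and 7.19 CPM per kilobase. The merged exons of *Col1a2* span 12426 bases and those of *Col1a1* 6563 bases, so the place of *Col1a2* depends on this length. Most neighbors in this order had overlapping ranges across mice. Exon lengths came from an annotation older than that of the submitters, and a merged length counts exons of rarely used transcripts, so small differences between genes carry little weight. At the low end, *Col17a1*, a component of hemidesmosomes, was at 0.0461 CPM per kilobase.

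**Figure D1:**
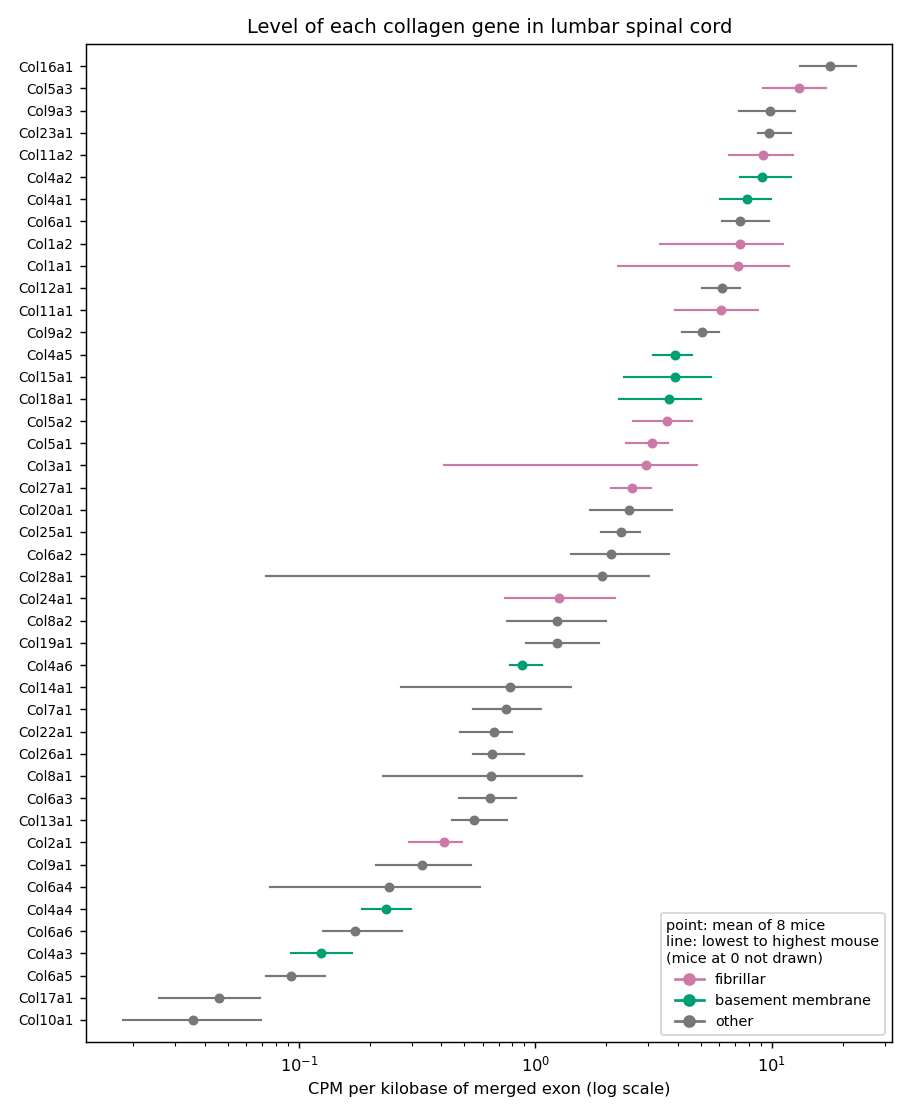
Mean level of each of the 44 collagen genes over 8 mice (points) with the lowest and highest mouse (lines), in CPM per kilobase of merged exon on a log axis; color marks the class. *Col16a1* leads at 17.6 CPM per kilobase, and the lines of *Col28a1* and *Col3a1* are the longest among the 43 tested genes.

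No collagen gene passed the test between *Ager*-deleted mice and controls. With edgeR's exact test and Benjamini-Hochberg adjustment over all 19470 genes tested, 0 of 43 collagens passed an adjusted p of 0.05, against 14 genes in the whole table (0.0719%). The count was also 0 with the quasi-likelihood test, which called 1 gene in all (0.00514%), with DESeq2, which called 25 (0.128%), and with common and tagwise dispersions, which called 78 (0.401%). At an unadjusted p under 0.05, each of these methods left 1 collagen, *Col6a4*, against 4.26% of all genes in the exact test, 6.71% in the quasi-likelihood test, 6.52% in DESeq2 and 3.38% with common and tagwise dispersions. The 8 mice separated by genotype without overlap for 0 of 43 collagens, against 3.88% of all genes tested. Log2 fold changes of *Ager*-deleted over control mice ran from -1.11 to 0.34 with a median of 0.05. The median over all genes tested was 0.0069, 26 of 43 collagens (60.5%) had a positive value, and so had 52.0% of all genes.

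**Figure D2:**
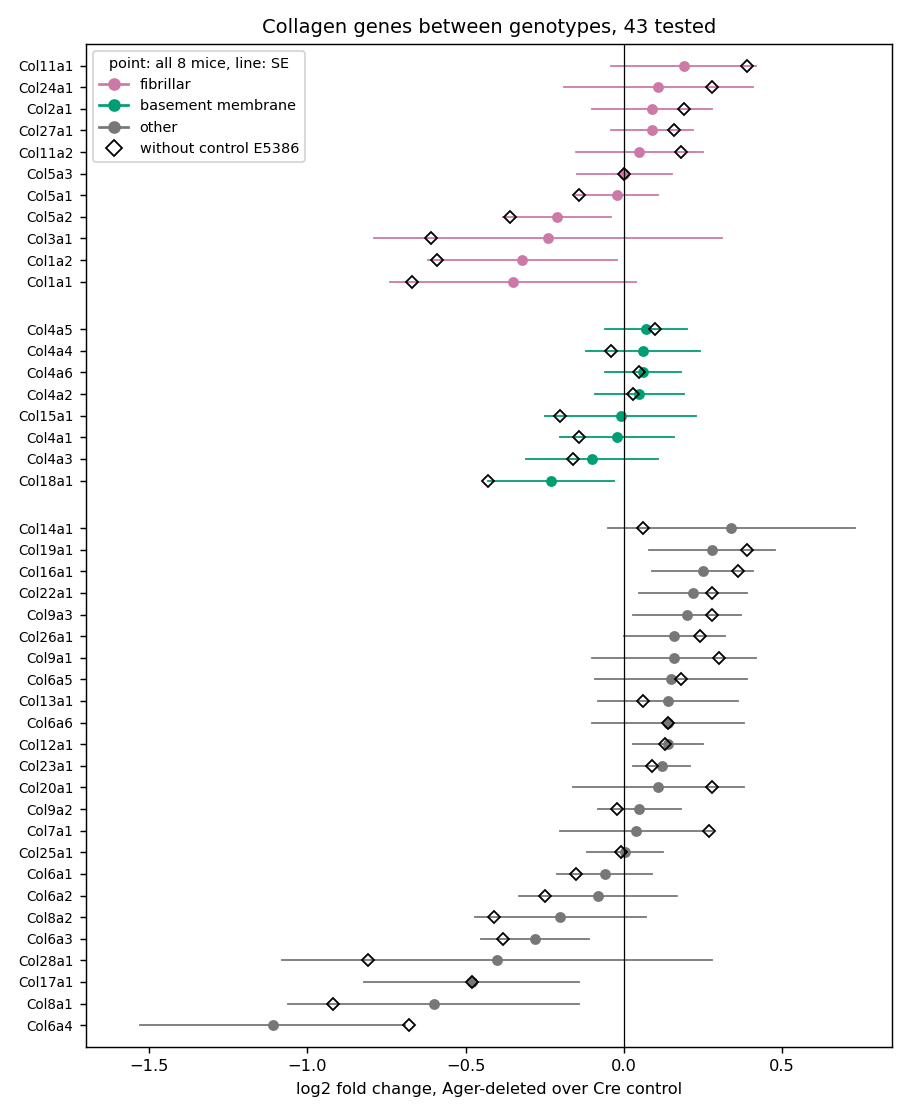
Log2 fold change of *Ager*-deleted over control mice for the 43 collagen genes tested, grouped by class (points, all 8 mice), with the standard error of the quasi-likelihood fit (lines); open diamonds show the same value without control E5386. Points run from -1.11 (*Col6a4*) to 0.34 (*Col14a1*), and leaving out E5386 moves the type I and III collagen genes and *Col28a1* to lower values.

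Among the fibrillar collagens, the largest fold changes belonged to the chains of type I and type III collagen, the main fibrils of connective tissue. *Col1a1*, on chromosome 11 from 94936224 to 94953042 (GRCm38), measured 34.5, 36.3, 56.4 and 38.5 CPM in *Ager*-deleted mice and 14.7, 61.7, 57.9 and 77.3 CPM in controls. The groups overlapped because of control E5386, the lowest of the 8 mice, whereas the other 3 controls all lay above the *Ager*-deleted mice. The log2 fold change was -0.35 ± 0.39 (SE), with an adjusted p of 1.00 (exact test) or 0.884 (quasi-likelihood), and an exact permutation p of 0.886.

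*Col1a2*, on chromosome 6 from 4504814 to 4541544, encodes the partner chain of *Col1a1*. It was at 67.1, 70.0, 107 and 81.0 CPM in *Ager*-deleted mice and at 41.7, 115, 110 and 139 CPM in controls. The order was the same as for *Col1a1* in that E5386 was lowest and the other 3 controls were above every *Ager*-deleted mouse. Its log2 fold change was -0.32 ± 0.30 (SE; exact test, adjusted p = 1.00).

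*Col3a1*, on chromosome 1 from 45311538 to 45349706, encodes the only chain of type III collagen, which accompanies type I in distensible tissue. It was at 17.2, 24.1, 41.9 and 22.9 CPM in *Ager*-deleted mice and at 4.02, 37.8, 35.9 and 47.5 CPM in controls. E5386 was again far below the other 7 mice, and the *Ager*-deleted mouse E5248 was within the range of the other 3 controls. Its log2 fold change was -0.24 ± 0.55 (SE; exact test, adjusted p = 1.00), and a miRNA gene on the same strand shares 141 bases with its exons.

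The other 8 fibrillar collagens varied less. *Col5a1* and *Col5a2*, chains of the type V collagen that nucleates fibrils, and *Col5a3* had log2 fold changes of -0.02, -0.21 and 0.0016. The type XI genes *Col11a1* and *Col11a2* and the type II gene *Col2a1*, all best known from cartilage, were at 0.19, 0.05 and 0.09 on the log2 scale. *Col24a1* and *Col27a1*, fibrillar collagens of bone and cartilage, were at 0.11 and 0.09, and *Col24a1* was at 0.28 without E5386. The median log2 fold change of the 11 fibrillar genes was 0.0016, and 6 of 11 were positive.

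The basement membrane collagens were at similar levels in both genotypes. *Col4a1*, on chromosome 8 from 11198423 to 11312826, measured 52.5, 61.1, 74.3 and 45.4 CPM in *Ager*-deleted mice and 44.9, 72.2, 67.3 and 52.2 CPM in controls. *Col4a2*, its partner in most basement membranes, lies head to head with it from 11312805 to 11449287 and was at 60.4, 56.7, 79.7 and 48.6 CPM in *Ager*-deleted mice and 57.6, 65.7, 62.1 and 51.6 CPM in controls. For both genes the *Ager*-deleted mouse E5248 was highest and the genotypes overlapped throughout. Their log2 fold changes were -0.02 ± 0.18 and 0.05 ± 0.14 (SE), and both had adjusted p = 1.00 (exact test).

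The remaining type IV chains form the specialized networks of kidney, lung, eye and cochlea. *Col4a3*, low in this tissue, was at 1.12, 1.13, 1.41 and 1.14 CPM in *Ager*-deleted mice and at 1.15, 0.926, 1.37 and 1.68 CPM in controls. *Col4a5*, on the X chromosome, was at 30.8, 27.9, 27.6 and 21.3 CPM in *Ager*-deleted mice and at 27.6, 21.1, 24.6 and 29.4 CPM in controls. The groups overlapped for both, with log2 fold changes of -0.10 ± 0.21 and 0.07 ± 0.13 (SE; exact test, adjusted p = 1.00 for each). A noncoding gene on the opposite strand shares 563 bases with exons of *Col4a3*. *Col4a4* and *Col4a6* were at 0.06 each on the log2 scale.

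*Col15a1* and *Col18a1* encode collagens that carry glycosaminoglycan chains and link basement membranes to the tissue beneath, and fragment release from *Col18a1* gives endostatin. *Col15a1* was at 19.3, 22.9, 35.2 and 20.9 CPM in *Ager*-deleted mice and at 15.0, 26.7, 24.9 and 32.4 CPM in controls. *Col18a1*, on chromosome 10 from 77052178 to 77166548, measured 21.9, 24.9, 26.4 and 22.1 CPM in *Ager*-deleted mice and 15.9, 30.0, 30.5 and 35.2 CPM in controls. Control E5386 was lowest for both, and for *Col18a1* the other 3 controls were above every *Ager*-deleted mouse. The log2 fold changes were -0.01 ± 0.24 for *Col15a1* and -0.23 ± 0.20 for *Col18a1* (SE; exact test, adjusted p = 1.00 for each). The median over the 8 basement membrane genes was 0.02, with 4 of 8 positive.

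Type VI collagen forms beaded microfibrils around cells. *Col6a1* was at 26.9, 30.8, 39.6 and 28.8 CPM in *Ager*-deleted mice and at 27.6, 32.5, 29.1 and 42.6 CPM in controls. *Col6a2* was at 15.3, 18.5, 18.1 and 16.0 CPM in *Ager*-deleted mice and at 11.8, 14.8, 14.7 and 30.5 CPM in controls, with E6732 alone above the *Ager*-deleted mice and the other 3 controls below them. *Col6a3* was at 5.69, 5.69, 8.80 and 7.78 CPM in *Ager*-deleted mice and at 6.76, 8.61, 8.61 and 9.92 CPM in controls. The log2 fold changes of the 3 genes were -0.06 ± 0.15, -0.08 ± 0.25 and -0.28 ± 0.17 (SE; exact test, adjusted p = 1.00 for each), and that of *Col6a2* was 0.30 without E6732.

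*Col6a4*, on chromosome 9 from 105989454 to 106096783, had the largest fold change of any collagen. This low-level chain was at 1.88, 0.647, 1.69 and 0.982 CPM in *Ager*-deleted mice and at 5.0, 2.84, 1.66 and 1.73 CPM in controls. Only controls E5386 and E5642 lay above the *Ager*-deleted mice, and these were the libraries with high skeletal muscle markers. The log2 fold change of -1.11 ± 0.42 (SE) had p = 0.0114 before and 0.779 after adjustment (exact test), and an adjusted p of 0.742 by quasi-likelihood and 0.385 by DESeq2. Without E5386 and E5642 it was -0.38, and without E5386 alone -0.68. Summed muscle markers were 80.7 and 97.6 CPM in the other controls E6578 and E6732, and their part in this result was not tested. Noncoding genes on the opposite strand share 127 and 162 bases with its exons. *Col6a5* and *Col6a6*, its tandem neighbors, were at 0.15 and 0.14 on the log2 scale.

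All 9 FACIT collagens, which coat fibrils or bridge them to other matrix, had positive fold changes with all mice, against 52.0% of all genes. None passed the test. The median was 0.20 on the log2 scale, against 0.0069 over all genes, and summed CPM was 321 ± 41.9 in *Ager*-deleted mice and 280 ± 42.3 in controls (SD, n = 4 each), less than 1 SD apart. *Col16a1*, chosen for mention once its values were known, was at 153, 138, 125 and 99.7 CPM in *Ager*-deleted mice and at 133, 89.2, 89.3 and 121 CPM in controls (log2 fold change 0.25 ± 0.16, SE; exact test, adjusted p = 1.00). Controls E5642 and E6578 were below all *Ager*-deleted mice and the other controls were within their range. The other members were *Col19a1* at 0.28, *Col22a1* at 0.22, *Col9a3* at 0.20, *Col9a1* at 0.16, *Col12a1* at 0.14, *Col20a1* at 0.11, *Col9a2* at 0.05 and *Col14a1* at 0.34 on the log2 scale. The value of *Col14a1*, which binds fibrils through decorin, was 0.06 without E5386, and that of *Col9a2* was -0.02. Without E5386 and E5642 these 2 values were -0.0095 and -0.06, so the shared sign did not hold for every member. The other FACIT genes stayed positive there, from 0.10 for *Col12a1* to 0.44 for *Col9a1*. The median of the 9 was 0.28 without E5386, against 0.20 with all mice.

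Transmembrane collagens stay attached to the cell surface and can be shed. *Col23a1*, *Col25a1*, a collagen of neurons and motor axons, and *Col13a1*, a collagen of the neuromuscular junction, had log2 fold changes of 0.12, 0.0055 and 0.14. *Col17a1* was at 0.203, 0.297, 0.198 and 0.233 CPM in *Ager*-deleted mice and at 0.328, 0.154, 0.390 and 0.413 CPM in controls. All but E5642 among the controls were above the *Ager*-deleted mice, at levels of few reads (12 in E5386). Its log2 fold change was -0.48 ± 0.34 (SE; exact test, adjusted p = 1.00).

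The short-chain collagens form hexagonal lattices beneath endothelia. *Col8a1* was at 2.54, 5.12, 4.60 and 3.88 CPM in *Ager*-deleted mice and at 1.78, 4.72, 5.62 and 12.3 CPM in controls, so that both the lowest and the highest mouse were controls. Its log2 fold change was -0.60 ± 0.46 (SE; exact test, adjusted p = 1.00), -0.92 without E5386 and -0.0014 without E6732. *Col8a2* was at -0.20 on the log2 scale, and at -0.41 without E5386. Among the last 3 genes, *Col7a1* of the skin's anchoring fibrils and *Col26a1* were at 0.04 and 0.16, and *Col28a1*, a collagen found mainly in the peripheral nervous system, at -0.40. Without E5386 *Col7a1* was at 0.27. The 24 tested genes of the other class had a median of 0.12, with 16 of 24 positive.

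Class totals gave the same picture. Summed CPM of the fibrillar collagens was 514, 452, 591 and 411 in *Ager*-deleted mice and 432, 538, 492 and 612 in controls. The basement membrane collagens summed to 196, 204, 254 and 169 CPM in *Ager*-deleted mice and 171, 225, 220 and 213 CPM in controls. The other collagens summed to 526, 512, 528 and 440 CPM in *Ager*-deleted mice and 470, 429, 415 and 549 CPM in controls. The genotypes overlapped in all 3 classes. The group means differed by -26.8 CPM, -1.42 CPM and 36.1 CPM (*Ager*-deleted minus control), against a pooled SD between mice of 77.3, 30.6 and 51.7 CPM. When a single mouse was left out, the fibrillar difference ran from -59.5 to 4.62 CPM and the basement membrane difference from -17.3 to 11.0 CPM, so the sign of both turned, while that of the other collagens ran from 19.3 to 64.3 CPM.

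**Figure D3:**
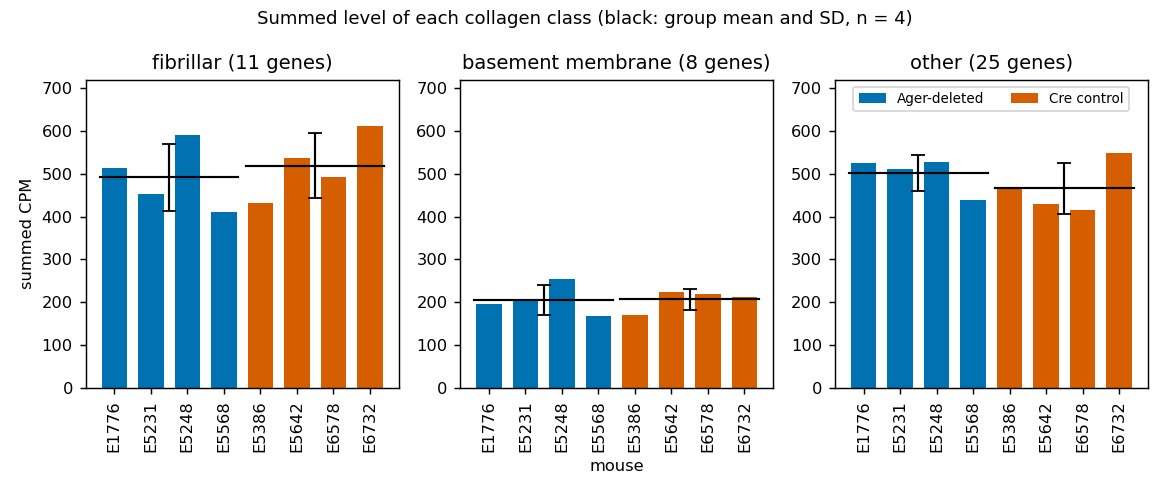
Summed CPM of the fibrillar, basement membrane and other collagens in each mouse (bars), with the mean and SD of each genotype (black, n = 4). The genotypes overlap in every class, and fibrillar sums run from 411 to 612 CPM.

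The spread between mice was unequal across the collagens. The highest mouse exceeded the lowest by less than 2-fold for 25 of 43 collagens, with a smallest ratio of 1.36 for *Col4a6*, and by more than 5-fold for 6 of 43 (14.0%, against 2.75% of all genes tested). The 6 were *Col28a1*, *Col3a1*, *Col6a4*, *Col8a1*, *Col14a1* and *Col1a1*. Control E5386 was the lowest of the 8 mice for 16 of 43 collagens (37.2%), while it was lowest for 9.45% of all genes. By class these were 5 of 11 fibrillar, 4 of 8 basement membrane and 7 of 24 other collagens. Control E6732 and the *Ager*-deleted mouse E5248 were each the highest for 13 of 43 (30.2%), against 10.3% and 17.3% of all genes.

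In E5386, 10 of 43 collagens (23.3%) were more than 1.5-fold below the median of the other 7 mice, against 3.95% of all genes tested. The largest gap was that of *Col28a1*, chosen for mention once its values were known, with 4.88, 11.1, 8.83 and 7.62 CPM in *Ager*-deleted mice and at 0.356, 14.9, 13.8 and 13.7 CPM in controls. The median of the other mice was 31.1 times the level in E5386, where 13 reads were counted. The same ratio was 8.92 for *Col3a1*, 3.83 for *Col1a1*, 3.26 for *Col14a1*, 2.66 for *Col8a1* and 2.57 for *Col1a2*. It was 1.66 for each of *Col15a1* and *Col18a1*, 1.63 for *Col8a2* and 1.55 for *Col5a2*. The collagens that led per kilobase were not low in this mouse, with a ratio of 0.915 for *Col16a1*, 1.01 for *Col5a3* and 0.821 for *Col9a3*.

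**Figure D4:**
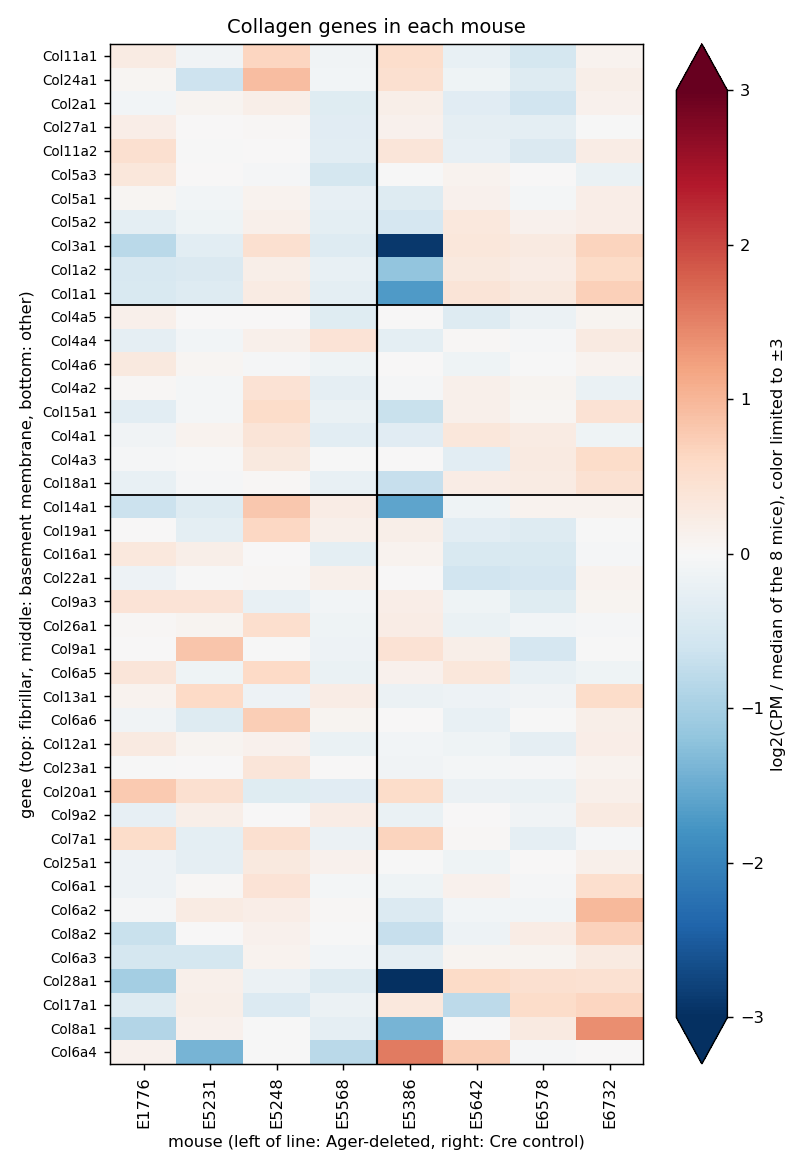
Log2 ratio of each collagen gene's CPM to its median over the 8 mice, for the 43 genes tested (rows, by class) in each mouse (columns, genotypes separated by a line); the color scale stops at 3 in either direction. The darkest cells are *Col3a1* and *Col28a1* in control E5386, at 4.02 and 0.356 CPM.

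The chains did not fall in parallel. Per kilobase, the ratio of *Col1a2* to *Col1a1* was 0.953 to 1.11 in 7 mice and 1.49 in E5386, and that of *Col3a1* to *Col1a1* was 0.333 to 0.496 in 7 mice and 0.182 in E5386. The ratio of *Col4a2* to *Col4a1* was 1.03 to 1.30 in 7 mice and 1.45 in E5386. The ratio of *Col4a6* to *Col4a5* in E5386, 0.210, was within the range of 0.205 to 0.253 of the others.

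The windows of 250 bases before the transcription start are shown for 2 of the collagens that were lowest in E5386, *Col3a1* and *Col28a1*, and for 2 that were not, *Col5a3* and *Col11a1* (RefSeq, GRCm38.p6, each 5′ to 3′ on the gene's strand). Genes were taken from the 35 of 44 collagens matched by symbol to the RefSeq promoter table, among windows that overlap no annotated exon. Capitals mark matches, on either strand, to the TATA box motif TATAAA, to the CCAAT box motif CCAAT and to the GC box motif GGGCGG, which do not overlap each other here. The *Col3a1* window is chr1:45311288-45311537 (+), that of *Col28a1* is chr6:8192618-8192867 (-), that of *Col5a3* is chr9:20815068-20815317 (-), and that of *Col11a1* is chr3:114030290-114030539 (+).
*Col3a1*: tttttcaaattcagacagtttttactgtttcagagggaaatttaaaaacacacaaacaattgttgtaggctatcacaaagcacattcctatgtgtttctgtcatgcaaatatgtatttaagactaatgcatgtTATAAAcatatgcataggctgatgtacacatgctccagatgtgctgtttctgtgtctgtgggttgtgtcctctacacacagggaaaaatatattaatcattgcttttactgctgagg
*Col28a1*: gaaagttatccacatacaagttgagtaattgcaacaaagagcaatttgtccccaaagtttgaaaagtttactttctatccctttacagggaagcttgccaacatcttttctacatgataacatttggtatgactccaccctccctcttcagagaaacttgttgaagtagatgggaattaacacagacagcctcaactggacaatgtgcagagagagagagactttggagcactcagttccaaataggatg
*Col5a3*: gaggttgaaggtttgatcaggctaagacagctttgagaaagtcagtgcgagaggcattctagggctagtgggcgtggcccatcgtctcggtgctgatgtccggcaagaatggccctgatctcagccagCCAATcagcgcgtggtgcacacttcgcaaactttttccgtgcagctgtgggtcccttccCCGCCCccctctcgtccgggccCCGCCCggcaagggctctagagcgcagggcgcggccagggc
*Col11a1*: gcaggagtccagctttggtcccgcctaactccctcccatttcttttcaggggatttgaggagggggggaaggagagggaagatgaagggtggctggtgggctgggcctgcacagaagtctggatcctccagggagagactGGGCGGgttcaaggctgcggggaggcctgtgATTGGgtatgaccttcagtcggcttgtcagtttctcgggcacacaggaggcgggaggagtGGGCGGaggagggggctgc

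The *Col3a1* and *Col28a1* windows had a GC content of 35.2% and 40.4%, and the *Col5a3* and *Col11a1* windows of 62.8% and 62.4%. TATAAA occurred once in the *Col3a1* window and in 13.2% of the 38 collagen windows, against 12.4% of 32851 windows of the same length over all genes. The CCAAT box was in 34.2% of collagen windows and 33.8% of all, and the GC box in 57.9% and 32.7%. Both of these motifs were in the *Col5a3* and *Col11a1* windows and neither was in the other 2. This split did not hold across the collagens. *Col8a1* and *Col1a2*, also low in E5386, had 4 and 2 GC boxes in their windows, and *Col24a1*, which was not low in E5386, had neither motif. These matches describe the letters only.

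Markers of other cell types moved with the collagens that were low in E5386. Of 11 Schwann cell markers, 8 were lowest in that mouse. *Cldn19*, a tight junction gene of Schwann cells, was at 0.273 CPM in E5386 and at 6.88 to 24.9 CPM in the others, while *Mbp*, which oligodendrocytes also express, was at 12414 CPM, within the range of 11047 to 13683 CPM in the others. Of 13 tested meningeal fibroblast markers, 10 were lowest in E5386, among them the solute carrier *Slc13a4* at 0.985 CPM (2.39 to 14.6 CPM in the others) and *Cdh1* at 0.410 CPM (1.83 to 9.90 CPM). Of 9 tested tendon and perineurium markers, 5 were lowest in that mouse. Among endothelial, mural and spinal cord markers, 1 of 12, 3 of 12 and 3 of 16 were lowest there. None of these markers was at 0 in every mouse. Over all genes tested the share lowest in E5386 was 9.45%. Summed endothelial markers were 375 CPM in E5386, against 332 to 461 CPM in *Ager*-deleted mice and 376 to 406 CPM in the other controls. Summed mural markers were lowest in E5386, at 278 CPM, against 296 to 381 CPM in *Ager*-deleted mice and 332 to 371 CPM in the other controls. The part of these cell types in the collagen values was not tested.

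**Figure D5:**
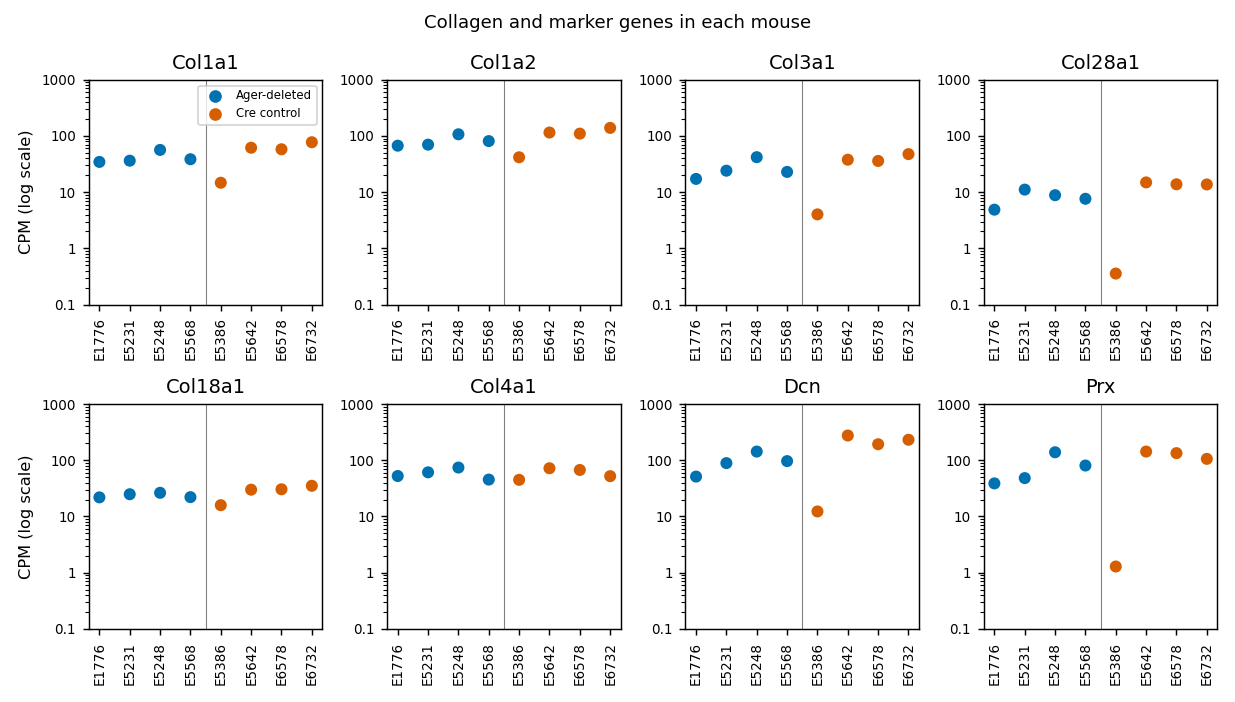
CPM of 6 collagen genes, of *Dcn* (decorin) and of *Prx* (Schwann cells) in each mouse on a log axis shared by all panels; color marks the genotype. Each of the 8 genes is lowest in control E5386, with *Prx* at 1.29 CPM against 38.8 CPM or more in the other mice, whereas *Col4a1*, at 44.9 CPM, is close to the 45.4 CPM of E5568.

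Leaving out E5386 lowered the log2 fold changes of the type I collagens. This direction was set by the choice of mouse, because E5386 was the lowest of the 8 mice for both genes. With the 3 remaining controls at 65.6 ± 10.2 CPM (SD, n = 3) and the *Ager*-deleted mice at 41.4 ± 10.2 CPM (SD, n = 4), the log2 fold change of *Col1a1* was -0.67, with adjusted p = 0.0658 by the exact test and 0.509 by quasi-likelihood. *Col1a2* was at -0.59 (adjusted p = 0.0845 in the exact test), *Col18a1* at -0.43 (0.0702), *Col28a1* at -0.81 (0.121), *Col5a2* at -0.36 (0.406), *Col8a1* at -0.92 (0.502) and *Col3a1* at -0.61 (0.627). In the exact test 0 of 43 collagens passed the adjusted threshold, against 72 of 19716 genes (0.365%). The quasi-likelihood test without E5386 called 0 of 43 collagens, and over all genes 1 higher and 0 lower in *Ager*-deleted mice. At an unadjusted p under 0.05 in the exact test these 7 were lower in *Ager*-deleted mice and *Col16a1* was higher (0.36, adjusted p = 0.799), against 4.46% of all genes lower and 1.26% higher. All 7 were lowest in E5386, and the p-values do not allow for leaving out that mouse.

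For 4 of 43 collagens, *Col1a1*, *Col1a2*, *Col18a1* and *Col28a1*, the 3 controls other than E5386 were all above the *Ager*-deleted mice, as they were for 4.37% of all genes tested. The same marker lists moved in this comparison. Without E5386 the median log2 fold change was -0.74 over 13 meningeal fibroblast markers and -0.58 over 11 Schwann cell markers, and 0.0066 over the 16 spinal cord markers and -0.03 over 12 endothelial markers. *Prx* was at 38.8 CPM in E1776 and 48.2 CPM in E5231 and at 106 to 143 CPM in those controls, with E5248 at 139 and E5568 at 80.7 CPM. The part of these markers in the collagen values was not tested.

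E6732, the control in which 13 collagens were highest, was also highest for 10 of 13 meningeal markers, including *Slc47a1* at 8.36 CPM (0.229 to 0.957 CPM in the others), and for the liver markers. *Col8a1* and *Col6a2* at 12.3 and 30.5 CPM stood out most in this mouse. Without it, 0 of 43 collagens were called, *Col1a1* was at -0.11 and *Col3a1* at 0.03 on the log2 scale. In the *Ager*-deleted mouse E5248, *Col24a1*, *Col3a1*, *Col14a1* and *Col11a1* were the highest of their genotype, at 16.6, 41.9, 9.96 and 112 CPM. The part of these markers in the collagen values of E6732 was not tested.

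Genes that make, cross-link, break down and bind collagen showed no called change. In each of 6 lists, 0 genes passed the exact test (0.0719% of all genes did). Collagen modification and folding held 22 tested genes with a median log2 fold change of 0.02. *P4ha2* and *P4ha1*, prolyl hydroxylase subunits that stabilize the helix, had the smallest unadjusted p of that list, with fold changes of 0.30 ± 0.11 and 0.16 ± 0.11 (SE) and adjusted p = 1.00 in the exact test. *P4ha2* was at 17.8, 13.6, 17.7 and 17.0 CPM in *Ager*-deleted mice and at 15.2, 13.1, 13.1 and 12.4 CPM in controls. Only E5386 among the controls lay within the range of the *Ager*-deleted mice.

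Propeptide cleavage and cross-linking held 13 tested genes (median -0.02). *Lox*, the lysyl oxidase that cross-links fibrils, was at 9.88, 13.2, 7.31 and 8.81 CPM in *Ager*-deleted mice and at 8.48, 23.6, 18.8 and 9.56 CPM in controls (log2 fold change -0.62 ± 0.32, SE; exact test, adjusted p = 1.00). Controls E5642 and E6578 were the highest, and the other controls were within the range of the *Ager*-deleted mice. *Pcolce*, the enhancer of procollagen cleavage, was at 6.26 CPM in E5386, the lowest mouse, and at 11.5 to 22.7 CPM in the others. Its log2 fold change was -0.29, and -0.58 without E5386 (adjusted p = 0.0702 in the exact test).

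Collagenases, gelatinases and their inhibitors held 15 tested genes with a median of -0.17, 11 of them negative. Over all genes tested, 9348 of 19470 were negative and the median was 0.0069. The collagen uptake receptor *Mrc2* and the inhibitor *Timp4* had fold changes of -0.29 ± 0.14 and -0.34 ± 0.22 (SE; exact test, adjusted p = 1.00 for each). Collagen receptors held 11 tested genes with a median of -0.13, with *Ddr2*, a receptor kinase for fibrillar collagen, at -0.31 ± 0.14 and the integrin subunit *Itgb1* at -0.13 ± 0.08 (SE; adjusted p = 1.00 for each). The 12 regulators of TGF-β signaling had a median of -0.04, with the receptor *Tgfbr1* at -0.15 ± 0.09 and the latent binding protein *Ltbp2* at -0.57 ± 0.36 (SE; adjusted p = 1.00 for each). *Ltbp2* was highest in E5386, at 1.72 CPM against 0.455 to 1.14 CPM in the others, and its fold change was -0.23 without that mouse.

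Some, but not all, proteoglycans and matrix proteins that bind collagen were also low in E5386. Of 16 tested genes, 9 were lowest in that mouse, against 9.45% of all genes tested. The rest were not, among them *Fmod* at 137 CPM (96.5 to 243 CPM in the others) and *Sparc* at 2485 CPM (2160 to 3231 CPM). Of the 16, 13 had a negative fold change, against 9348 of 19470 genes in all. The median over the 16 was -0.18, against 0.0069 over all genes. *Omd* (osteomodulin) was at 0.610, 1.32, 0.762 and 0.775 CPM in *Ager*-deleted mice and at 0.492, 2.44, 1.63 and 3.09 CPM in controls, with a log2 fold change of -1.14 ± 0.47 (SE; exact test, adjusted p = 0.968). E5386 was below the *Ager*-deleted mice and the other 3 controls were above them. *Aspn*, a related leucine-rich protein, was at -0.54 ± 0.26 (adjusted p = 1.00).

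*Dcn*, decorin, which binds type I fibrils, was chosen for mention once its values were known and had the same order. It was at 51.3, 89.1, 143 and 96.7 CPM in *Ager*-deleted mice and at 12.3, 276, 193 and 232 CPM in controls, so that 3 controls were above all *Ager*-deleted mice and E5386 was below them. Its log2 fold change went from -0.91 with all mice (exact test, adjusted p = 1.00) to -1.31 without E5386 (adjusted p = 0.00331), and that of *Omd* to -1.47 (adjusted p = 0.00824). These 2 genes were the members of the list called by the exact test without E5386. *Lum* (lumican) was at 1.15 CPM in E5386 and 7.11 to 32.7 CPM in the others, and *Ogn* (osteoglycin) at 2.27 CPM and 24.3 to 126 CPM. *Cldn1*, a tight junction gene of the perineurium, was also called by the exact test without E5386, at -1.04 (adjusted p = 0.00847). So was *Tbx18*, of the meningeal list, at -1.17 (adjusted p = 0.00824). *Dcn*, *Omd*, *Cldn1* and *Tbx18* were each lowest in E5386, and these p-values do not allow for leaving out that mouse. The quasi-likelihood test without E5386 called 0 genes lower in *Ager*-deleted mice, so it called none of them. The part of the perineurium and meninges in the values of *Dcn* was not tested.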

How the data were processed

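Lumbar spinal cord RNA of 8 mice was sequenced as stranded polyA libraries. Per the labels, the submitters' processing notes name Trimmomatic 0.36, STAR 2.7.3a, Subread 1.6.3 (featureCounts), edgeR 3.26.8 and the build mm10. The strand setting of counting is not given in the sources used here. The authors deposited whole-number read counts per gene, used here, and a table of log2 CPM normalized with TMM, which was checked against log2 CPM recomputed from the counts (largest difference 4.78e-06 over 19470 genes).

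Counts were filtered with filterByExpr (minimum count 10) and normalized with TMM in edgeR 4.0.16 (R 4.3.3). The test was edgeR's exact test, which the study also used, with Benjamini-Hochberg adjustment over all genes tested and a threshold of 0.05. The study reported 78 differentially expressed genes. That is the number called here with common and tagwise dispersions, against 14 with the main setting. Only these counts are set side by side, not the genes behind them. Standard errors came from the quasi-likelihood fit. Single genes also had an exact two-sided permutation test of log2(CPM + 1) over 70 assignments. Alternatives were RLE, upper quartile and library size scaling, other filters, other dispersions, the quasi-likelihood test, DESeq2 1.42.0 and leaving out mice. Each mouse was a sample, with 4 per genotype. Total counts were 31148047 to 40324897 per mouse.

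Gene positions and exon lengths came from GENCODE M21 (GRCm38), in which all 44 symbols matched once. Exons of 13 collagens overlap another gene. Per-mouse values were given for the main chains of types I, III, IV, VI, XV and XVIII, for the 3 largest fold changes in each class, and for genes called or not overlapping between genotypes. From each pathway list, the genes with the 2 smallest p were named. Members and lists were chosen with earlier results of these data known. A further gene of a marker list was left out and is not reported here.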

Additional observations from a re-analysis of the deposited data

Results flagged for a closer look

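Dixon's test for a single outlying value was applied to each genotype's 4 mice, for 43 collagens and 4 sums (94 groups), and 6 groups exceeded it. Chance alone flags about 5 in 100 groups, which is close to this number. In controls, *Col28a1* was at 0.356 CPM in E5386, against 13.7 to 14.9 CPM in the other 3. *Col6a2* was at 30.5 CPM in E6732, against 11.8 to 14.8 CPM, and *Col13a1* at 3.40 CPM in E6732, against 2.05 to 2.15 CPM. In *Ager*-deleted mice, *Col23a1* was at 69.4 CPM in E5248, against 53.4 to 54.7 CPM, and *Col4a3* at 1.41 CPM in E5248, against 1.12 to 1.14 CPM. *Col9a1* was at 2.7 CPM in E5231, against 1.37 to 1.52 CPM. Of the 6, only the value of *Col28a1* was a low one, and E5386 also held the low values of the Schwann cell and meningeal markers.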

How the results depend on the processing

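The count of collagens called was 0 in all 17 alternatives. The number of all genes called, 14, was 8 with CPM above 1 in at least 4 mice, 78 with common and tagwise dispersions, 1 with the quasi-likelihood test, 25 with DESeq2 and 67 without E5386 and E5642, and it ran from 3 to 98 with each mouse left out. Median log2 fold changes with each mouse left out ran from -0.08 to 0.14 (fibrillar), from -0.13 to 0.08 (basement membrane) and from 0.0024 to 0.15 (other), the extremes of the last 2 at -0.13 and 0.0024 coming without E5248. The differences of summed CPM moved by less than the spread between mice in every alternative run, though those of the fibrillar and basement membrane collagens changed sign with single mice left out. Of 16 genes followed, 8 kept their sign throughout. With library size scaling *Col4a1* and *Col15a1* changed sign to 0.01 and 0.02, and without E5386 and E5642 *Col4a5* was at -0.01. With each mouse left out, values ran from -0.61 to 0.03 for *Col3a1*, -0.16 to 0.08 for *Col4a1*, -0.10 to 0.15 for *Col4a2*, -0.19 to 0.09 for *Col6a1*, -0.25 to 0.30 for *Col6a2*, -0.23 to 0.15 for *Col15a1*, -0.23 to 0.07 for *Col4a3* and -0.02 to 0.16 for *Col4a5*. The cause of these changes was not tested. *Col6a4*, *Col8a1* and *Col28a1* kept their sign, with ranges of -1.34 to -0.68, -0.92 to -0.0014 and -0.81 to -0.21. No paired analysis was possible because the labels give mouse names and no number shared between genotypes. Collagens at few reads, such as *Col17a1*, could show large differences only.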
